A study of Homo sapiens with 2 samples.

Results

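The interferon regulatory factors (IRFs) are a family of transcription factors, and 8 of its genes, IRF1, IRF2, IRF3, IRF4, IRF5, IRF7, IRF8 and IRF9, were followed here. They were found by their Entrez Gene identifiers among 16085 genes and loci listed in either of 2 deposited expression files. Of the 8 genes, 7 were listed in both files, and all 7 reached an FPKM (fragments scaled to gene length and to the library total) of 1. IRF8 was listed in neither file.

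The files came from 1 library each of cells labelled as MDA-MB-231, an established line from a human triple-negative breast carcinoma, and the RNA was sequenced after poly(A) selection. The shZEB1 cells carried a short hairpin knockdown of ZEB1, a zinc-finger repressor tied to epithelial-to-mesenchymal transition, and the shCtrl cells carried a control hairpin. The series asked how ZEB1 in tumour cells bears on macrophage polarization. Whether each line was a clone or a pool, and which hairpin it carried, is not stated in the labels. With 1 library per condition no spread between cultures was measured and no test between conditions was possible. Every interval below is a 95% interval that covers counting error only.

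All IRF proteins bind DNA through a conserved N-terminal domain rich in tryptophan, and recognise repeats of the letters GAAA in the interferon-stimulated response element. Sensors of viral nucleic acid activate kinases that phosphorylate IRF3 and IRF7, which then switch on interferon genes. Secreted interferon acts back on cells through JAK kinases and STAT factors, and IRF9 joins STAT factors in the complex named ISGF3. IRF1, IRF7 and IRF9 are themselves induced by interferon. IRF3 and IRF2 are usually expressed without a stimulus, whereas IRF4, IRF5 and IRF8 are best known from particular lineages, IRF4 in lymphocytes and in melanocytes.

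The shZEB1 library held 8441491 assigned reads and the shCtrl library 8740584. ZEB1 itself had 15 reads in shZEB1 and 46 in shCtrl, a read ratio of 0.338 (interval 0.175 to 0.616). Its FPKM was 0.31 in shZEB1 and 0.88 in shCtrl, below 1 in both, so the targeted transcript was scarce in the control as well. The line label was at odds with melanocyte markers: the FPKM reached 10 in each of the libraries for all 10 examined, with a median of 123 in shZEB1 and 150 in shCtrl. Markers of basal-type breast lines were mixed. Of 15 examined, 4 reached 10 in both libraries, and the median of the 15 was 1.67 in shZEB1 and 0.74 in shCtrl. The 4 were CD44 (134 in shZEB1 and 147 in shCtrl), MSN (235 and 199), ANXA1 (156 and 171) and CAV1 (44.0 and 46.6). KRT5 and KRT19 were listed in neither file. The values below therefore describe cells that carry abundant melanocyte transcripts. In RNA from whole cultures, fewer cells of a type and less RNA per cell cannot be told apart.

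Within the family, the interferon-inducible members were lower in shZEB1, IRF4 was moderately lower, IRF3 was nearly equal and IRF2 was higher. IRF9 and IRF7 met the size rule used throughout, which asks that log2((FPKM shZEB1 + 1)/(FPKM shCtrl + 1)) reach -1 or 1 and that the interval of the read ratio exclude 1. The rule therefore counted 2 of the 7 measured members as lower, against 1.61% of the 12274 measured genes and loci, and 0 as higher, against 0.937%. By the interval alone, 4 members lay below a read ratio of 1, against 21.4% of measured genes, and 1 lay above it, against 27.9%. The median log2 ratio of the 7 members was -0.47, beside 0.02 over all measured genes. A negative log2 ratio was seen for 6 of the 7 members, among them IRF3 near 0, and for 46.7% of measured genes.

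**Figure D1:**
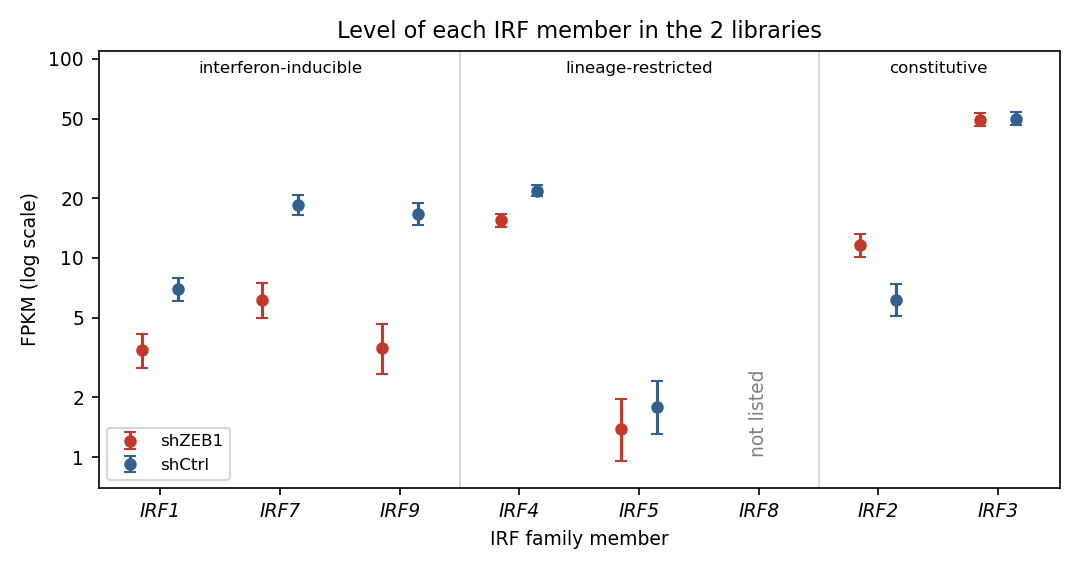
FPKM of each IRF member (log axis) in the shZEB1 library (red) and the shCtrl library (blue); bars are 95% exact Poisson intervals for counting error in 1 library each. IRF1, IRF7, IRF9 and IRF4 sit lower in shZEB1, IRF2 sits higher, and IRF3 is near 50 in both.

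IRF9, the subunit that gives ISGF3 its DNA sequence preference, had the lowest ratio of the family. IRF9 (Entrez Gene 10379, chr14:24161265-24166565 on hg38) had an FPKM of 3.54 in shZEB1 and 16.7 in shCtrl, from 49.25 and 239.32 estimated reads. This was a 4.72-fold lower level, with a log2 ratio of -1.96 and a read ratio of 0.212 (interval 0.153 to 0.290). Only 0.155% of measured genes had a lower log2 ratio. In the order of expression, IRF9 exceeded 36.7% of the genes listed in shZEB1 and 69.5% of those listed in shCtrl. The gene model RNF31, whose end lies 609 bases before the start of IRF9, had an FPKM of 16.2 in shZEB1 and 20.1 in shCtrl (read ratio 0.903, interval 0.811 to 1.01).

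IRF7, known as the main amplifier of interferon alpha genes, was the other member counted as lower. IRF7 (Entrez Gene 3665, chr11:612555-615950) had an FPKM of 6.15 from 100 reads in shZEB1 and 18.5 from 305 reads in shCtrl. The level was 3.00-fold lower, the log2 ratio was -1.45 and the read ratio was 0.339 (interval 0.268 to 0.427). A lower log2 ratio was found for 0.521% of measured genes. PHRF1, which ends 332 bases from IRF7, had an FPKM of 25.9 in shZEB1 and 24.7 in shCtrl, and its interval of 0.969 to 1.14 included 1. CDHR5, 632 bases from the other side of IRF7, had 6 reads in shZEB1 and 1 in shCtrl, too few to place its ratio (interval 0.754 to 286).

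IRF1, an activator of genes of the interferon gamma response, lay at the edge of the size rule. IRF1 (Entrez Gene 3659, chr5:132481609-132490773) had an FPKM of 3.43 in shZEB1 and 6.97 in shCtrl, from 101.84 and 214.18 estimated reads. Its FPKM was 2.03-fold lower, and its read ratio was 0.494 (interval 0.386 to 0.628). The log2 ratio of -0.85 missed the threshold because the added pseudocount of 1 shrinks the ratio of a gene at this level. With a pseudocount of 0.1 it was -1.0, and IRF1 was then counted as lower, as were 2.4% of measured genes. Of measured genes, 2.71% had a log2 ratio below that of IRF1.

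Promoter windows of 300 bases, 250 before the start and 50 after it, were held for 5 of the 8 members in the RefSeq set on GRCh38.p14. IRF2, IRF3 and IRF7 had no window in that set and were not searched. Each window was searched on both strands for the core of the interferon-stimulated response element, written as GAAA, any 2 bases and GAAA again, for the STAT-binding gamma-activated site TTCNNNGAA, for the ZEB1 E-box CACCTG with its reverse complement CAGGTG, and for the M-box core CATGTG. IRF1 and IRF9, which both had lower levels in shZEB1, each held 1 gamma-activated site, and their windows are shown because that site is the only match of these motifs in either. Capitals mark it, 124 bases before the start in IRF1 (chr5:132490724-132491023, minus strand) and 63 bases before it in IRF9 (chr14:24161015-24161314, plus strand).
IRF1: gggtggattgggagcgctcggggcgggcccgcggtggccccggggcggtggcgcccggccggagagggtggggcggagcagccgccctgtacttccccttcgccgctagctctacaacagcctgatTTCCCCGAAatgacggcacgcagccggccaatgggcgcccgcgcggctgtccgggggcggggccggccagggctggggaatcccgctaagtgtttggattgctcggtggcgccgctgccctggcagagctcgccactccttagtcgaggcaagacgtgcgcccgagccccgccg
IRF9: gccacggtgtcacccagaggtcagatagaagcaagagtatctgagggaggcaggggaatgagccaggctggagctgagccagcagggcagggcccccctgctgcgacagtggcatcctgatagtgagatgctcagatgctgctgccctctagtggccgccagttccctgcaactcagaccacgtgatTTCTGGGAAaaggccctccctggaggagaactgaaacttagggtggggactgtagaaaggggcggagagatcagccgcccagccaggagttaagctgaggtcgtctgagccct
That motif was present in 7.66% of the 35097 promoter windows of all genes, so a match is common by itself. The single window of IRF4 (chr6:391502-391801) held none of these motifs. The E-box was found in 2 of the 4 windows of IRF5 and in both windows of IRF8, and in 20.6% of all windows. The windows of IRF8 (chr16:85902580-85902879 and chr16:85902765-85903064) overlap and hold the same single match. A match is a description of the letters and not a measured binding site.

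IRF4, which in melanocytes cooperates with MITF to activate the tyrosinase gene, was the second most abundant member in both libraries. IRF4 (Entrez Gene 3662, chr6:391752-411443) had an FPKM of 15.5 from 693 reads in shZEB1 and 21.8 from 1002 reads in shCtrl. The read ratio of 0.716 (interval 0.649 to 0.790) lay below 1, but the log2 ratio of -0.47 did not reach the size rule. A lower log2 ratio was found for 8.82% of measured genes. Thus IRF4 was lower by far less than IRF7 or IRF9.

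The other lineage-restricted members were scarce. IRF5, known for inflammatory cytokine induction in myeloid cells (Entrez Gene 3663, chr7:128937032-128950038), had an FPKM of 1.39 from 33 reads in shZEB1 and 1.79 from 44 reads in shCtrl. Its read ratio of 0.777 had an interval of 0.479 to 1.25, which held both 1 and the ratio of IRF4, so no difference was detectable at this depth. IRF8, which directs monocyte and dendritic cell development (Entrez Gene 3394, chr16:85899162-85922609), was listed in neither library.

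The constitutive members differed from each other. IRF3, the factor that responds first to viral nucleic acid (Entrez Gene 3661, chr19:49659572-49665857), had an FPKM of 49.6 from 641 reads in shZEB1 and 50.1 from 680 reads in shCtrl. Its read ratio was 0.976 with an interval of 0.875 to 1.09. IRF2, which occupies the same DNA elements as IRF1 and is known to antagonise it (Entrez Gene 3660, chr4:184387729-184474550), had an FPKM of 11.6 from 221 reads in shZEB1 and 6.17 from 121 reads in shCtrl. The FPKM of IRF2 was 1.88-fold higher, with a read ratio of 1.89 (interval 1.51 to 2.38). Its log2 ratio of 0.82 missed the size rule, and 2.14% of measured genes had a higher one. IRF2 was the only listed member with a positive log2 ratio in this measure, though that of IRF3 (-0.01) changed sign under other scalings.

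**Figure D2:**
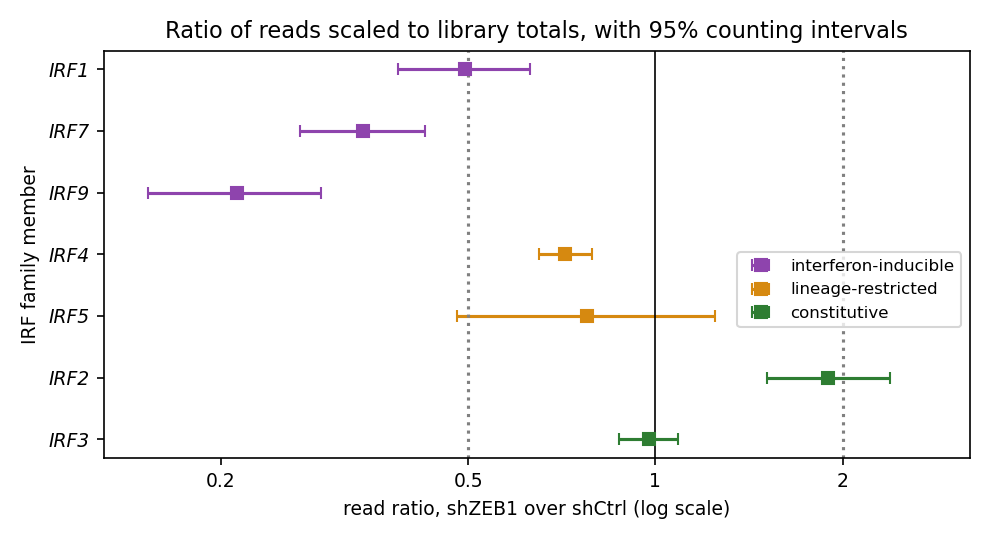
Read ratio of shZEB1 over shCtrl for each listed member (log axis), scaled to library totals, with 95% exact binomial intervals; dotted lines mark 2-fold differences. The 3 interferon-inducible members lie between 0.212 and 0.494, IRF4 at 0.716, IRF3 at 0.976 and IRF2 at 1.89.

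Summed by role, the 3 interferon-inducible members had a combined FPKM of 13.1 in shZEB1 and 42.1 in shCtrl, a ratio of 0.311. The 2 constitutive members had a combined FPKM of 61.2 in shZEB1 and 56.3 in shCtrl, a ratio of 1.09. The median log2 ratio was -1.45 for the inducible members and 0.40 for the constitutive ones, a difference of -1.85. IRF4 lay 0.87 below the constitutive median, a difference of -0.87 on the log2 scale. The constitutive median rests on IRF2 and IRF3 alone, which themselves differ by more than the counting intervals.

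The order of levels changed between libraries below IRF3 and IRF4. In shZEB1 the FPKM order was IRF3, IRF4, IRF2, IRF7, IRF9, IRF1 and IRF5, and the counting intervals of neighbours overlapped for IRF9 and IRF1 alone. In shCtrl the order was IRF3, IRF4, IRF7, IRF9, IRF1, IRF2 and IRF5. There the intervals overlapped between IRF4 and IRF7, between IRF7 and IRF9, and between IRF1 and IRF2. IRF2 therefore stood above IRF7, IRF9 and IRF1 in shZEB1. In shCtrl it stood below IRF7 and IRF9, while its order against IRF1 was not resolved by the counting intervals.

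The make-up of the family within a library does not depend on how libraries are scaled to each other. The FPKM of the family summed to 91.3 in shZEB1 and 122 in shCtrl. IRF3 made up 54.4% of this sum in shZEB1 and 41.1% in shCtrl, and IRF2 made up 12.7% and 5.06%. IRF7 made up 6.74% in shZEB1 and 15.1% in shCtrl, and IRF9 3.88% and 13.7%. The share of IRF4 was close in both, at 17.0% in shZEB1 and 17.9% in shCtrl. The inducible members together made up 14.4% in shZEB1 and 34.5% in shCtrl.

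**Figure D3:**
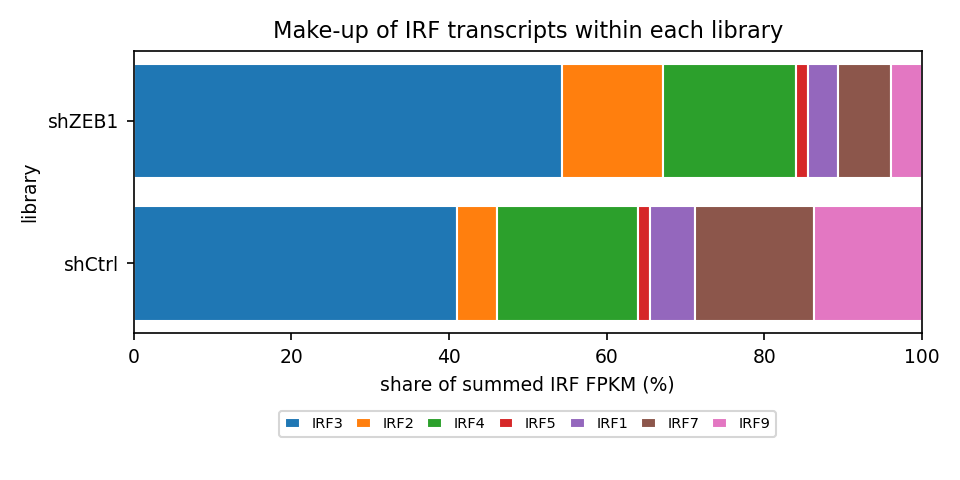
Share of the summed IRF FPKM taken by each listed member (percent) in the shZEB1 library (top) and the shCtrl library (bottom). IRF7 and IRF9 hold 6.74% and 3.88% in shZEB1 and 15.1% and 13.7% in shCtrl, while IRF3 and IRF2 hold larger shares in shZEB1.

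The ratio of IRF1 to IRF2, an activator set against its antagonist, was 0.295 by FPKM in shZEB1 and 1.13 in shCtrl. By reads, this ratio was 0.262 times as large in shZEB1 as in shCtrl (interval 0.186 to 0.365). IRF9 relative to IRF3 stood at 0.218 of its shCtrl value (interval 0.154 to 0.303), IRF7 relative to IRF3 at 0.348 (0.268 to 0.449), and IRF4 relative to IRF3 at 0.734 (0.633 to 0.850). IRF9 and IRF7 also parted from each other: the ratio of IRF7 to IRF9 was 1.60 times as large in shZEB1 (interval 1.08 to 2.40). Of the 21 pairs of listed members, 18 had a ratio whose interval excluded an equal value in both libraries. The 3 remaining pairs were those of IRF5 with IRF1, IRF3 and IRF4. These intervals are not adjusted for the number of pairs, which reuse the same 7 members. The share over pairs of other genes was not computed, so 18 of 21 has no baseline. For single genes, the interval of the read ratio lay below 1 for 21.4% of measured genes and above 1 for 27.9%.

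Upstream of the family, the lists of genes that detect nucleic acid or pass the signal on had smaller median differences than IRF7 and IRF9. The interval of the sensor gene IFIH1, given below, did overlap that of IRF7. Of 15 adaptors and kinases that activate IRF3, IRF5 and IRF7, all were measured, with a median log2 ratio of -0.11. The size rule counted 0 as lower, against 1.61% of measured genes, and 0 as higher, against 0.937%. With shares this low, a count of 0 in a list of this size says little. TBK1, the kinase of IRF3 and IRF7, had an FPKM of 13.2 in shZEB1 and 13.1 in shCtrl. The related kinase gene IKBKE had 4.33 in shZEB1 and 6.95 in shCtrl (read ratio 0.624, interval 0.496 to 0.782). MYD88, the adaptor of Toll-like receptors, had 10.7 in shZEB1 and 16.9 in shCtrl (read ratio 0.630, interval 0.537 to 0.739). TANK, a scaffold that binds TBK1, had 10.5 in shZEB1 and 6.89 in shCtrl (read ratio 1.67, interval 1.31 to 2.13). AZI2, another adaptor of TBK1, had 17.3 in shZEB1 and 21.0 in shCtrl. The interval lay below 1 for 3 members of the list and above 1 for 3, against 21.4% and 27.9% of measured genes.

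Of 11 nucleic acid sensors, 7 were measured. The size rule counted 0 as lower, against 1.61% of measured genes, and 0 as higher, against 0.937%, so the count says little here. The interval lay below 1 for 4, against 21.4% of measured genes. IFIH1, which encodes the RNA sensor MDA5, had an FPKM of 1.79 in shZEB1 and 4.33 in shCtrl (read ratio 0.414, interval 0.296 to 0.572). It was counted as lower with a pseudocount of 0.1, with TPM, with edgeR or DESeq2 scaling and at 1.5-fold. RIGI had 1.68 in shZEB1 and 2.5 in shCtrl, and DHX58, which encodes the related sensor LGP2, had 4.70 and 7.48. IFI16, a DNA sensor, had 127 in shZEB1 and 151 in shCtrl. IFIH1, RIGI, DHX58 and IFI16 are all known to be induced by interferon themselves. The list median was -0.25.

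Transcripts of interferons were not found: 0 of the 13 interferon genes examined were listed in either library. The 15 receptor chains, JAK kinases, STAT factors and feedback genes were all measured, with a median log2 ratio of -0.11. The size rule counted 0 as lower, against 1.61% of measured genes, and 0 as higher, against 0.937%, so the count says little here. STAT2, which binds IRF9 in ISGF3, had an FPKM of 16.3 in shZEB1 and 21.3 in shCtrl (read ratio 0.764, interval 0.688 to 0.848). The interval of IRF9, 0.153 to 0.290, lay below that of STAT2. The interval lay below 1 for 5 of the 15 and above 1 for 5, against 21.4% and 27.9% of measured genes. The receptor genes IFNAR1 (16 in shZEB1 and 13.9 in shCtrl), IFNLR1 (4.70 and 3.61) and IL10RB (14.6 and 11.7) and the kinase genes JAK1 (31.7 and 29.3) and TYK2 (28.9 and 25.9) were those above 1. The feedback inhibitor genes USP18 (7.63 in shZEB1 and 11.6 in shCtrl) and SOCS3 (5.07 and 7.94) had intervals below 1, while SOCS1 had 12 reads in shZEB1 and 5 in shCtrl, with an interval of 0.815 to 9.00.

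Target genes of ISGF3, downstream in the pathway, were mostly lower in shZEB1, and so was IRF9. The part of IRF9 in these values was not tested, and the list was chosen with earlier results of these data known. Of 39 such genes, 32 were measured, 10 were counted as lower, against 1.61% of measured genes, and 0 as higher, against 0.937%. The interval lay below 1 for 26 and above it for 0, against 21.4% and 27.9% of measured genes. Their median log2 ratio was -0.60, beside 0.02 over all measured genes. The 10 were IFI6, BST2, IFITM1, OAS2, ISG15, ISG20, OAS1, IFITM3, IFI27 and IFIT3. OAS1, which makes the messenger that activates RNase L, had an FPKM of 2.89 in shZEB1 and 11.6 in shCtrl. ISG20, an exonuclease, had 3.44 in shZEB1 and 13.6 in shCtrl. IFITM3, which blocks viral entry, had 133 in shZEB1 and 352 in shCtrl, and IFIT3, a partner of the RNA-binding protein IFIT1, had 11.2 and 25.1. IFI27 rested on 6 reads in shZEB1 and 26 in shCtrl. Other members lay close to 0, such as SP110 (10.5 in shZEB1 and 11.7 in shCtrl).

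Target genes of IRF1 in the interferon gamma response were mostly lower in shZEB1. The part of IRF1 in these values was not tested. Of 25, 19 were measured, 4 were counted as lower (1.61% of measured genes were) and 0 as higher (0.937%), with a median log2 ratio of -0.77. The interval lay below 1 for 14 of the 19, against 21.4% of measured genes. The 4 were TAP1 of the peptide transporter, WARS1 (tryptophanyl-tRNA synthetase), HLA-E and APOL6. WARS1 had an FPKM of 68.9 in shZEB1 and 186 in shCtrl, a read ratio of 0.365 (interval 0.344 to 0.387). APOL6, an apolipoprotein L gene, had 1.36 in shZEB1 and 3.75 in shCtrl (read ratio 0.362, interval 0.290 to 0.448). NLRC5, which drives MHC class I genes, had 3.37 in shZEB1 and 6.92 in shCtrl and missed the rule. An interval above 1 was found for 3 genes, against 27.9% of measured genes, namely IL18BP (2.25 in shZEB1 and 0.75 in shCtrl), IDO1 (3.95 and 2.48) and GBP3 (6.07 and 4.39). HLA-E is similar in sequence to other HLA genes, so its reads may be shared.

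**Figure D4:**
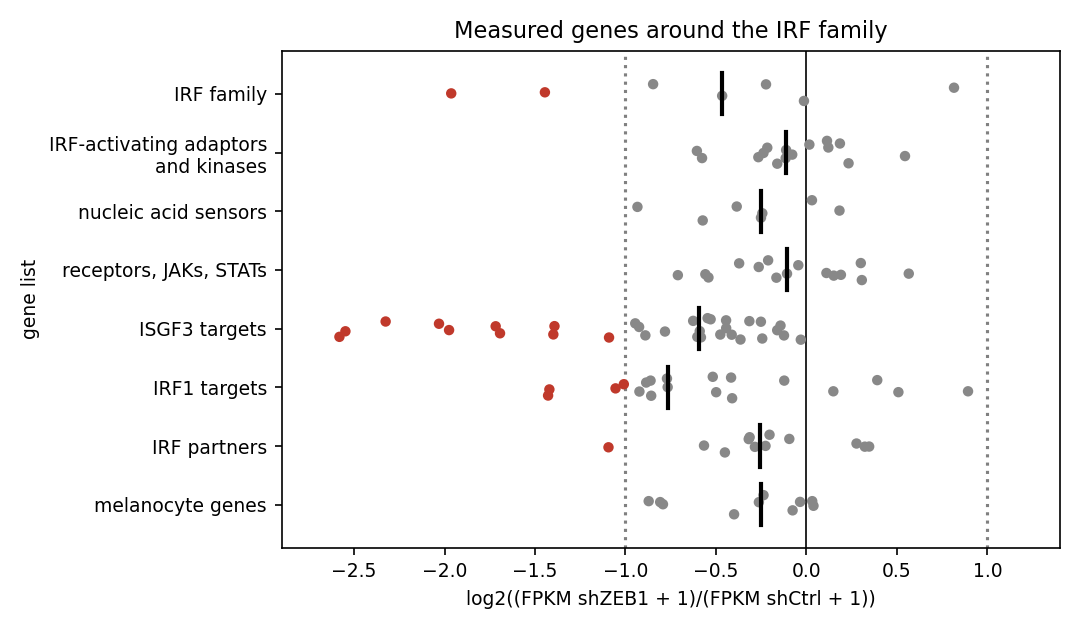
Log2 ratio of FPKM plus 1, shZEB1 over shCtrl, for the measured members of the IRF family and of 7 gene lists around it; each point is a gene, red points met the size rule and black bars are list medians. The ISGF3 target list has 10 red points and the IRF1 target list 4, while the lists of activating kinases, sensors and receptors have 0.

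The response element that IRF proteins read was common in the promoters of these targets. Of 33 ISGF3 targets with a promoter window in RefSeq, 24 held the core of GAAA, any 2 bases and GAAA (72.7%), and so did 13 of 15 IRF1 targets (86.7%), beside 4.38% of 27305 genes with a window. Many of these genes became known through that element, so the lists are not independent of it. The windows of 3 genes counted as lower are shown to let the repeats be read. Capitals mark each match, overlapping matches run together, and in TAP1 the matches are on the opposite strand. ISG15, a ubiquitin-like modifier, has 2 overlapping matches (chr1:1013247-1013546, plus strand), IFI6, an antiapoptotic protein of mitochondria, has 3 (chr1:27672143-27672442, minus strand), and TAP1 has 2 (chr6:32853655-32853954, minus strand).
ISG15: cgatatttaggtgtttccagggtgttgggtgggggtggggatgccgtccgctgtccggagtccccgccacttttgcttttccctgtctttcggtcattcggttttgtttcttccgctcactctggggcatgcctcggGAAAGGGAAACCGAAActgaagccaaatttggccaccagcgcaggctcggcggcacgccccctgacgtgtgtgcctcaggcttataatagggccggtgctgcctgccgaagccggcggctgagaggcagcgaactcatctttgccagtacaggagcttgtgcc
IFI6: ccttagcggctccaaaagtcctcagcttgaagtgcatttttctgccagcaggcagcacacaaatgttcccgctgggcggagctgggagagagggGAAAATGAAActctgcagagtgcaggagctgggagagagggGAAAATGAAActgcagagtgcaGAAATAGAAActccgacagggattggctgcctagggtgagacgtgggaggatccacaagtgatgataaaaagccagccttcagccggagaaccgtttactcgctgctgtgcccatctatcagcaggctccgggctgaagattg
TAP1: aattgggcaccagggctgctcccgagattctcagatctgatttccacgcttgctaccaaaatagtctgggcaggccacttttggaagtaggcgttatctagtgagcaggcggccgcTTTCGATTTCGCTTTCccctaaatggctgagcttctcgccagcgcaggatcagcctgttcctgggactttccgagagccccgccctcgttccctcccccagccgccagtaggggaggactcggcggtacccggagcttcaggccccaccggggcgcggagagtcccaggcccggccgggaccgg
ISG15 had an FPKM of 20.3 in shZEB1 and 82.6 in shCtrl, IFI6 26.7 and 165, and TAP1 8.97 and 25.8. The element was also present in genes outside the size rule, such as PARP9 (20.9 in shZEB1 and 32.8 in shCtrl) and B2M (462 and 840), and in IL18BP, whose level was higher in shZEB1.

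Among 16 proteins that bind IRF factors or regulate them, 12 were measured. The size rule counted 1 as lower, against 1.61% of measured genes, and 0 as higher, against 0.937%. The interval lay below 1 for 8 and above it for 3, against 21.4% and 27.9% of measured genes. BATF2, a partner of IRF1 in mouse macrophages, was the one, with 3 reads in shZEB1 and 28 in shCtrl. Its FPKM of 0.19 in shZEB1 and 1.54 in shCtrl passed the filter only through shCtrl, and with an FPKM of at least 5 required the count was 0. The IRF2-binding corepressor genes IRF2BP1 and IRF2BP2 had an FPKM of 12.7 and 13.1 in shZEB1 against 15 and 16.5 in shCtrl, opposite in direction to IRF2. Their relative IRF2BPL had 13.6 in shZEB1 and 20.5 in shCtrl. TRIM21, a ubiquitin ligase of several IRF proteins, had 11.4 in shZEB1 and 16 in shCtrl, and IKZF3, a lymphoid zinc-finger factor, had 1.2 and 0.73. SPI1, the partner of IRF4 and IRF8 in blood cells, was absent from the shZEB1 file and had 2 reads in shCtrl.

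Of 11 melanocyte genes around IRF4, 10 were measured, with a median log2 ratio of -0.25. The size rule counted 0 as lower, against 1.61% of measured genes, and 0 as higher, against 0.937%. With shares this low, a count of 0 in so short a list says little. At 1.5-fold, 3 were counted as lower, against 5.41% of measured genes, and 0 as higher, against 4.98%. The interval lay below 1 for 6 and above it for 0, against 21.4% and 27.9% of measured genes. MITF, the master regulator of the lineage, had an FPKM of 52.2 in shZEB1 and 55.1 in shCtrl (read ratio 0.949, interval 0.892 to 1.01). TYR, the tyrosinase gene on which IRF4 and MITF meet, had 128 in shZEB1 and 154 in shCtrl (read ratio 0.836, interval 0.790 to 0.884). TFAP2A, a neural crest factor known to act on an intronic enhancer of IRF4, had 11.3 in shZEB1 and 20.5 in shCtrl (read ratio 0.564, interval 0.493 to 0.646). DCT, a melanin enzyme, had 123 in shZEB1 and 225 in shCtrl, PMEL 405 and 703, and PAX3 16.5 and 22.1. IRF4, at a read ratio of 0.716, lay between TFAP2A and TYR. The summed FPKM of the 10 melanocyte markers was 1366 in shZEB1 and 1836 in shCtrl. PMEL and DCT differed most among them, while SOX10 (171 in shZEB1 and 175 in shCtrl) and TYRP1 (228 and 223) were close. Among these markers the interval lay below 1 for 6 and above 1 for 1, against 21.4% and 27.9% of measured genes. The 1 above was GPR143 (22.6 in shZEB1 and 18.8 in shCtrl). The part of the melanocyte genes in the value of IRF4 was not tested.

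IRF4, IRF5 and IRF8 are also genes of blood cells, and markers of those cells were near absent. Of 10 B and plasma cell markers, 1 was measured, SDC1, a gene that epithelial cells also express, with an FPKM of 16.5 in shZEB1 and 14.3 in shCtrl. The summed FPKM of that list was 17.7 in shZEB1 and 15.4 in shCtrl, and MS4A1, MZB1, TNFRSF17 and IGHM were listed in neither file. Of 8 T and NK cell markers, 1 was measured (KLRD1), with a list sum of 2.57 in shZEB1 and 2.18 in shCtrl, and CD3D, CD3E and CD2 were not listed. Of 12 macrophage and dendritic cell markers, 4 were measured, with a list sum of 12.2 in shZEB1 and 24.1 in shCtrl. CD68, a lysosomal gene not restricted to macrophages, made up most of that sum in shCtrl (4.12 in shZEB1 and 18.7 in shCtrl), with an interval below 1. LYZ (4.47 in shZEB1 and 2.25 in shCtrl) and ITGAX (2.02 and 1.31) lay the other way, with intervals of 1.23 to 3.19 and 1.11 to 2.30. The fourth, FCER1G, had 6 reads in shZEB1 and 7 in shCtrl, and PTPRC, CD163, TYROBP and FLT3 were not listed. The part of these genes in the IRF values was not tested.

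Some member values carry an uncertainty from overlapping gene models. In GENCODE release 29, 48.4% of the exon bases of IRF9 are shared with a read-through model on the same strand, and 22.0% of those of IRF1 with the antisense transcript now named CARINH, which was listed in neither file. IRF3 shares 19.3% of its exon bases with BCL2L12 on the opposite strand, and BCL2L12 had an FPKM of 32.5 in shZEB1 and 27.1 in shCtrl. Whether counting used strand is not stated in the labels. The estimated reads of IRF9 and IRF1 were not whole numbers, as happens when reads are divided among models, while those of the other listed members were whole. IRF2, IRF4, IRF5 and IRF7 shared no exon base with another model.

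By distance over log2(FPKM + 1) in the 2 libraries, the genes nearest to IRF9 among 11402 protein-coding genes were CSF3 (distance 0.14), CD68 (0.23) and ISG20 (0.28). Nearest to IRF7 were TCAF2 (0.09) and the near-identical histone genes H2AC19 and H2AC18 (0.20 each). Nearest to IRF4 were TPRN (0.02), SLC35E1 (0.02) and ARL16 (0.03). With 2 libraries, such nearness means only a similar level and a similar ratio.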

How the data were processed

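RNA of 1 shZEB1 library and 1 shCtrl library was analysed. The submitters' processing notes name hg38, RSEM 1.2.8, Bowtie2 2.2.5, HISAT2 2.1.0 and DESeq without their settings. The deposited files give, per the file headers, an FPKM, an expected count (estimated reads) and a gene length, computed by the authors separately per library. Genes absent from a file were entered at 0. Of 15217 numeric identifiers, 15183 were matched to RefSeq symbols on GRCh38.p14, which also gave coordinates and promoters.

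The measure was the log2 ratio of FPKM with a pseudocount of 1. Measured genes had an FPKM of at least 1 in either library. Read ratios used expected counts rounded to whole numbers and divided by library totals, with exact conditional binomial (Clopper-Pearson) intervals; single levels used exact Poisson intervals, and ratios between 2 members used exact conditional odds ratios. Without molecular identifiers reads are not independent molecules, so intervals cover counting error only. No dispersion can be estimated, so no p-value is given. The members and gene lists were chosen with earlier results of these data known. Named were all 8 members, counted list genes, otherwise up to 4 per list with the largest absolute log2 ratio, and the 3 genes nearest to IRF4, IRF7 and IRF9; other list genes were chosen after their values were seen, and 1 list gene is not reported here. Alternatives were a pseudocount of 0.1, median-ratio scaling, TPM, edgeR 4.0.16 and DESeq2 1.42.0 scaling, other filters, 1.5-fold and size alone. Python 3.11.15, SciPy 1.17.1 and R 4.3.3 were used.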

Additional observations from a re-analysis of the deposited data

How the results depend on the processing

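No paired analysis was possible because each condition had 1 library, so none could be left out either. IRF7 and IRF9 met the size rule under all 9 alternatives to the measure, filter and threshold. Across the settings that give a log2 ratio it ran from -2.21 to -1.96 for IRF9, from -1.57 to -1.45 for IRF7, from -1.01 to -0.85 for IRF1, from -0.53 to -0.43 for IRF4 and from 0.80 to 0.92 for IRF2. IRF3 was near 0 throughout, from -0.09 to 0.04, and changed sign. IRF1 was also counted as lower, for 3 members in all, with a pseudocount of 0.1 and on counts scaled by edgeR or DESeq2, where its CPM is not divided by gene length. At 1.5-fold, IRF1 joined them and IRF2 was counted as higher, giving 3 lower and 1 higher, against 5.41% and 4.98% of measured genes. With IRF2 counted as interferon-inducible, the difference between inducible and constitutive members was -1.13. The lists around the family held 15 genes counted as lower and 34 at 1.5-fold; 0 were counted as higher, but 1 was with a pseudocount of 0.1, with TPM and at 1.5-fold, namely IL18BP. Over all measured genes the count of higher ones was 115, and 311 with a pseudocount of 0.1, 239 with TPM, 209 with either count-based scaling, 44 with FPKM of at least 5 and 611 at 1.5-fold; the count of lower ones was 198, and 664 at 1.5-fold. Low read numbers limit IRF5 most, whose interval spans 0.479 to 1.25.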
